A study of Mus musculus with 12 samples.

Results

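The genes described here write, erase, read or remodel chromatin. They were chosen by symbol from an nCounter panel table, as the rows whose symbols start with the names of histone methyltransferases, demethylases, acetyltransferases and deacetylases, of the DNA methyltransferases and Tet enzymes, of SWI/SNF and ISWI remodellers, and of bromodomain and Polycomb proteins. The sex-linked genes Kdm5c, Kdm5d and Kdm6a were left out. This gave 53 of the 770 genes of the table, of which 50 were above the detection floor in all 12 mice and 3 were at the floor in every mouse.

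Total RNA came from the hippocampus of C57BL6/J mice aged 13 months, all housed in groups. The 4 groups of 3 mice were control females, mtOGG1 females, control males and mtOGG1 males. By the series title the mtOGG1 mice express OGG1, the glycosylase that removes oxidised guanine from DNA, in mitochondria; the promoter that drives it and the cells that carry it are not stated in the sources used. In the nCounter assay a barcoded probe pair binds each transcript and the barcodes are counted without amplification. Values are the deposited normalized counts, in which anything lower than 20 was raised to 20. Of 12 neuronal markers 10 were in the table, and all of these, among them Slc17a7 of excitatory neurons, were above the floor in every mouse. In whole tissue, fewer cells of a type and less RNA per cell cannot be told apart.

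Chromatin enzymes act on histones and on cytosines. Methyltransferases of the COMPASS family (Kmt2a, Kmt2c, Setd1a and Setd1b, with the shared subunit Ash2l) place an activating mark at promoters and enhancers, Polycomb repressive complex 2 (Ezh1 or Ezh2 with Eed and Suz12) places a repressive mark, and the Kdm demethylases remove such marks. Acetyltransferases such as Crebbp and Ep300 open chromatin, and the Hdac and Sirt enzymes reverse this. In neurons these enzymes take part in activity-dependent transcription, and Crebbp and Hdac2 are known for their roles in hippocampal memory.

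The promoters of these genes shared a feature that the choice by symbol did not use, their richness in CG dinucleotides, where DNA methylation can occur. RefSeq promoter windows of build GRCm38.p6 were matched by symbol for 44 of the 53 genes, and CG, which reads the same on both strands, was counted in the 250 bases before the farthest upstream start of each gene. The median count was 23 in these 44 windows and 13 in the 442 tested genes outside the choice with a window. Over all 27025 genes of the promoter table it was 6. The 44 include Dnmt3b with 21 CG and Kdm4d with 14, which were at the floor in every mouse and not tested. At least 10 CG were found in 41 of 44 windows (93.2%), compared with 62.4% of the other tested genes and 38.2% of all genes, as a description without a test. The windows of Kdm3a, Ezh2 and Hdac2 are shown because these genes recur in the comparisons, and that of Kdm4c because it held the fewest CG. Capitals mark CG.
Kdm3a, chr6:71632918-71633167, minus strand: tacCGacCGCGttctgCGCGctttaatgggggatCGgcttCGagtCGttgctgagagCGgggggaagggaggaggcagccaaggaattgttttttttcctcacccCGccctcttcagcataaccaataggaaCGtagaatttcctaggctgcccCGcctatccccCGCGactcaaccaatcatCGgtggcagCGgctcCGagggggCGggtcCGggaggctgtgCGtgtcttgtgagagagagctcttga
Ezh2, chr6:47595031-47595280, minus strand: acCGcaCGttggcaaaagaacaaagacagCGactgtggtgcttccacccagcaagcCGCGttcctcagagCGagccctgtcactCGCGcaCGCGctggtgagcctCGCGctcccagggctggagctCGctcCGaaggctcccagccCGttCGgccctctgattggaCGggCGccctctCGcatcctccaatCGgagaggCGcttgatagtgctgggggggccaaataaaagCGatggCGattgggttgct
Hdac2, chr10:36974294-36974543, plus strand: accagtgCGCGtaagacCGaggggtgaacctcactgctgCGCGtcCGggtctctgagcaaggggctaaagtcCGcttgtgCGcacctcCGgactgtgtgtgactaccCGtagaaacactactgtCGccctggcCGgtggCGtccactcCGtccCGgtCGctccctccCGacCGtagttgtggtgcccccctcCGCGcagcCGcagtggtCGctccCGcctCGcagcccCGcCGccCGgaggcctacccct
Kdm4c, chr4:74242247-74242496, plus strand: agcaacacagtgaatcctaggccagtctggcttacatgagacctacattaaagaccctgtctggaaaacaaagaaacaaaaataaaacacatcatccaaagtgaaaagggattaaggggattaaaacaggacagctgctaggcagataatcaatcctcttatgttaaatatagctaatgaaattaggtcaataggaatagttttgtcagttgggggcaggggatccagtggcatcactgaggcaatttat
Kdm3a held 20 CG, Ezh2 23, Hdac2 27 and Kdm4c 0. The table lists 3 starts for Kdm3a and 2 for Kdm4c, so that another start would give another window. Methylation itself was not measured.

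The 50 genes above the floor had mean values over 12 mice from 55.7 for Suv39h2, a methyltransferase of heterochromatin, to 1242 for Ehmt2, which encodes the methyltransferase G9a, and the mean was at least 100 in 45 genes. Ehmt2 stood at 1286, 1087 and 1222 in control females and 1369, 1264 and 1024 in mtOGG1 females. Ehmt2 values in males were 1279.6, 1399 and 1254 in control males and 1210.3, 1360.4 and 1149 in mtOGG1 males, and the genotypes overlapped in both sexes. Smarca5, the ISWI remodelling ATPase, had the next highest mean at 1101 and ranged from 952 to 1234. Kdm1b, a flavin-dependent demethylase, had the next lowest at 68.5 and ranged from 56.5 to 83.1. Probes differ in efficiency, and these values give no order of abundance between genes. The 3 genes at the floor were Dnmt3b, a de novo DNA methyltransferase, and the demethylase genes Kdm3b and Kdm4d. In these genes any difference below 20 was hidden by the floor. Over the table, the counts behind the values above 20 added up to 281838 in the mouse with fewest and 418467 in the mouse with most.

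The levels varied little between mice, as did those of most tested genes. The highest of 12 mice exceeded the lowest by a median factor of 1.37, beside 1.55 over the 608 tested genes. The factor stayed under 2 in 48 of 50 genes (96.0%), beside 499 of all 608 (82.1%). The standard deviation within groups on the log2 scale had a median of 0.14, beside 0.18 over all tested genes and 0.18 over the 337 other genes with means in the same range. It was 1.56 times the spread that counting alone would give in the median chromatin gene, 1.60 times over all tested genes and 1.74 times in those 337. The median spread of counting alone was also lower in the chromatin genes, at 0.09, beside 0.12 over all tested genes and 0.11 in the 337. In 6 of the 50 genes the spread lay below that of counting, and in 13 it was more than 2 times as large. The smallest values were 0.06 for Kdm5a, a demethylase of the activating promoter mark, 0.08 for Ezh1 and 0.09 for Sirt1, an NAD-dependent deacetylase. Tada2b, a subunit of acetyltransferase complexes, ranged from 272 to 325. It is known as a reference gene of such panels, and whether it entered the authors' scaling is not stated in the sources used.

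**Figure D1:**
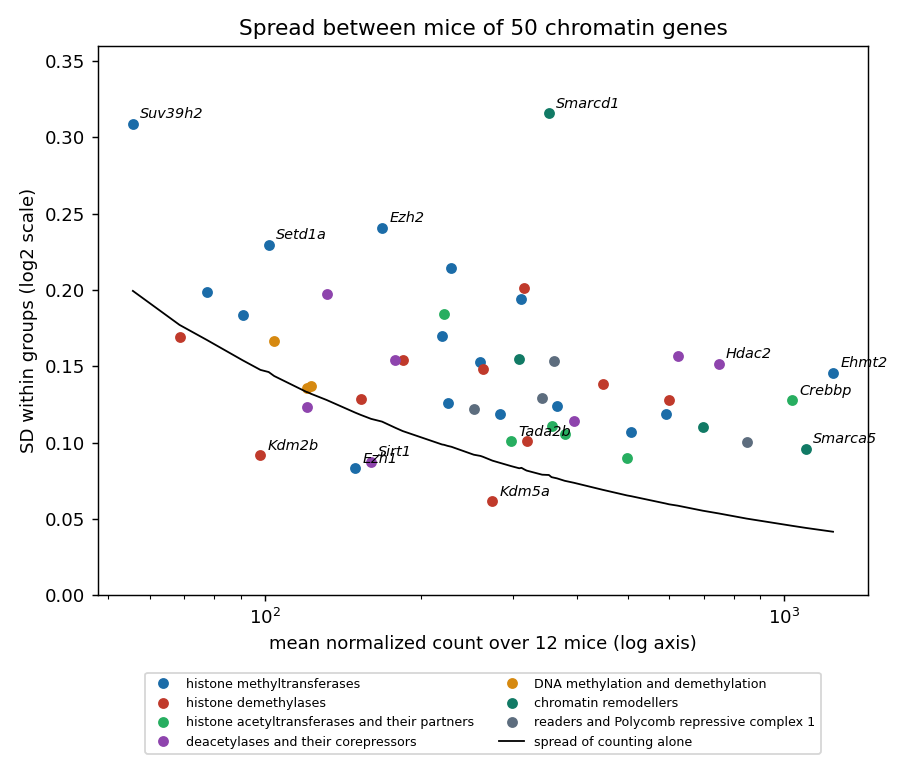
Standard deviation within groups on the log2 scale (vertical axis) against the mean normalized count over 12 mice (log horizontal axis) for 50 chromatin genes, coloured by role, with the spread from counting alone as a line. Smarcd1 (0.32) and Suv39h2 (0.31) lie highest, and Kdm5a (0.06) lowest.

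The spread was largest for Smarcd1, Suv39h2 and Ezh2. Smarcd1, a core subunit of the SWI/SNF remodelling complex, had a standard deviation of 0.32 on the log2 scale, 4.01 times the counting spread. It stood at 377, 288 and 362 in control females and 462, 371 and 230.0 in mtOGG1 females. Smarcd1 values in males were 364, 377 and 413 in control males and 324, 395 and 264 in mtOGG1 males. Its highest and lowest values both came from mtOGG1 females, and the genotypes overlapped in each sex. The standard deviation was 0.31 for Suv39h2, of which counting alone would give 0.20, and 0.24 for Ezh2, beside 0.11 from counting.

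Mice differed in the overall level of these genes, and the level of all genes mostly moved with it. The median deviation of the 50 genes from their group means lay between -0.13 in mtOGG1 female 3 and 0.12 in mtOGG1 female 1 on the log2 scale, and the same median over all tested genes was -0.10 and 0.12 in these mice. In mtOGG1 female 3, 48 of the 50 genes lay below their group mean. The widest gap between these medians was in mtOGG1 male 2, with 0.10 for the chromatin genes and 0.01 for all genes. With each mouse centred on its median gene, the median standard deviation was 0.12 in the chromatin genes and 0.17 in all genes.

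In the comparison of genotypes with the sexes averaged, limma's moderated test, at an adjusted p of 0.05, called none of the 50 genes and 8 of all 608 (1.32%). At an unadjusted p under 0.05 there were 2 chromatin genes, Kdm3a and Ezh2, and 71 of all genes (11.7%). The log2 fold changes, mtOGG1 over control, lay between -0.34 and 0.14, with a median of -0.03 beside -0.01 over all genes. They were below 0 in 34 of 50 chromatin genes and in 319 of 608 genes, a direction that depended on the scaling. With each mouse centred on its median gene 22 of the 50 and 236 of the 608 were below 0, with medians of 0.02 and 0.04. Scaling on panel reference genes left 21 of the 50 and 233 of the 608 below 0, with medians of 0.02 and 0.04. Scaling on the positive controls of the assay left 34 of the 50 and 321 of the 608, with medians of -0.03 and -0.01. Slc17a6 as a covariate, whose own level is described with the males, left 23 of the 50 and 361 of 607 genes. The medians were then 0.0039 and -0.03. The 95% interval stayed within a 1.5-fold change in either direction for 48 of the 50 genes, beside 543 of all 608. It stayed within a 2-fold change for all 50, beside 595 of the 608. The 2 chromatin genes with intervals wider than 1.5-fold were Suv39h2 and Ezh2.

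**Figure D2:**
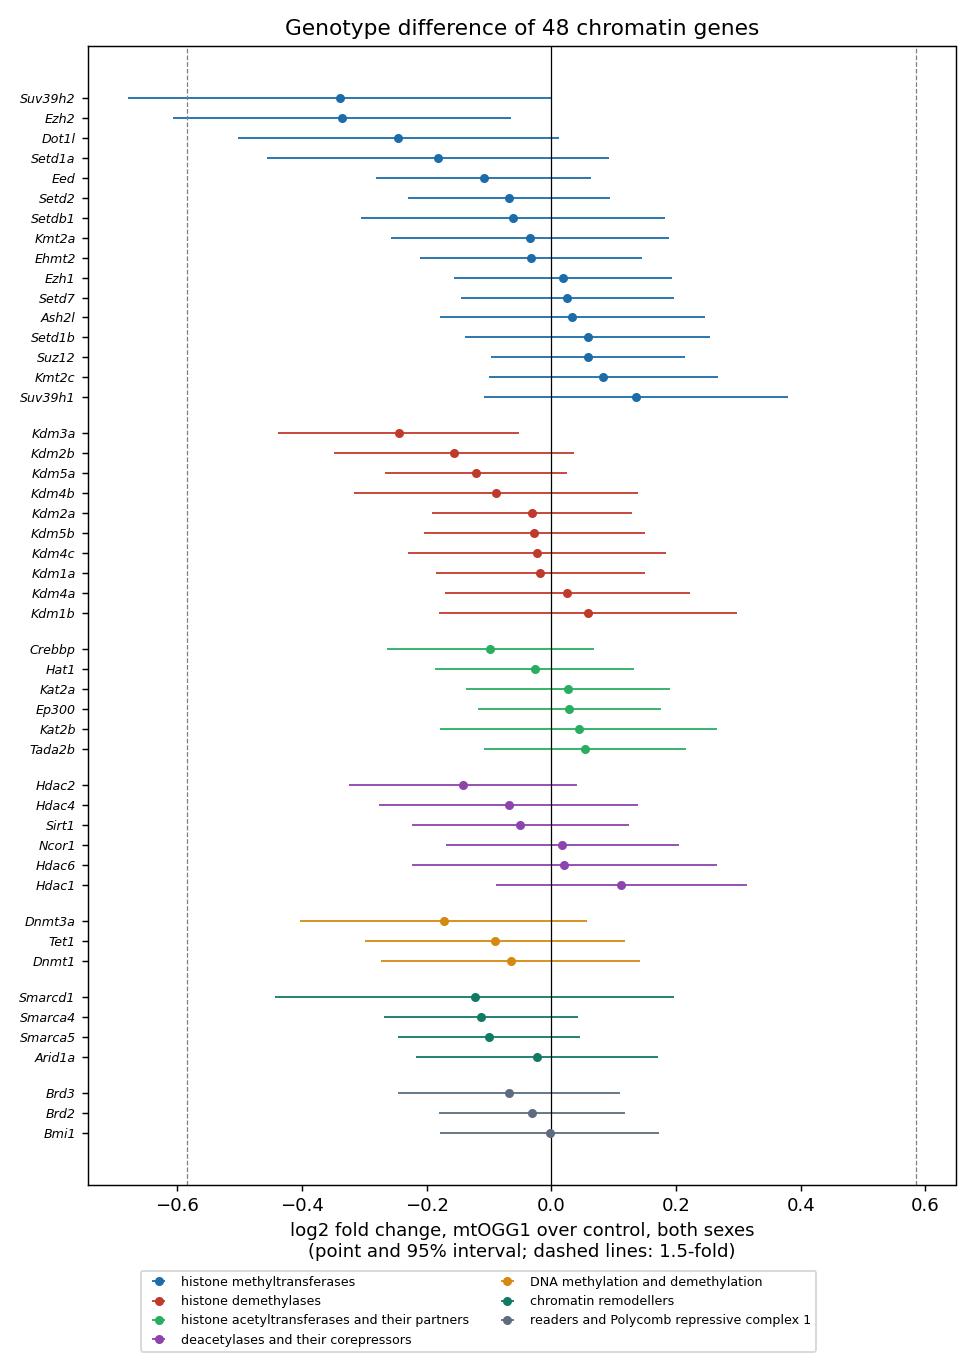
Log2 fold change of mtOGG1 over control mice with the sexes averaged (horizontal axis, point with its 95% interval from limma) for 48 of the 50 chromatin genes (rows), grouped and coloured by role, with 1.5-fold changes as dashed lines. All 48 points lie between -0.34 and 0.14, and the intervals of Suv39h2 and Ezh2 cross a dashed line.

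Among the 16 histone methyltransferase genes, 9 were below 0 and 7 above, both as deposited and with positive controls. With median centring, panel reference genes or Slc17a6 as a covariate 7 were below 0. Ezh2, the main catalytic subunit of Polycomb repressive complex 2, stood at 205, 180.4 and 172 in control females and 187, 183 and 109 in mtOGG1 females. Ezh2 values in males were 195, 191 and 175 in control males and 145, 126 and 149 in mtOGG1 males. The male groups did not overlap and the female groups did, with the lowest value of all 12 mice in mtOGG1 female 3. The difference with the sexes averaged did not pass the test (log2 fold change -0.34, limma adjusted p = 0.315), with a 95% interval of -0.61 to -0.06, and the log2 fold change was -0.21 without mtOGG1 female 3. The log2 fold changes of the other subunits were -0.11 for Eed, 0.06 for Suz12 and 0.02 for Ezh1, the alternative catalytic subunit.

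Suv39h2 stood at 49.5, 86.2 and 69.0 in control females and 62.0, 47.8 and 41.5 in mtOGG1 females. Suv39h2 values in males were 64.1, 60.9 and 45.9 in control males and 49.96, 54.4 and 37.5 in mtOGG1 males. The groups overlapped in each sex (log2 fold change -0.34, limma adjusted p = 0.423), and its paralog Suv39h1 had a log2 fold change of 0.14. Dot1l, the methyltransferase of the histone core that marks transcribed genes, stood at 86.3, 105 and 82.6 in control females and 78.4, 80.8 and 59.4 in mtOGG1 females, without overlap. Dot1l values in males were 72.2, 67.3 and 91.8 in control males and 62.2, 72.2 and 70.3 in mtOGG1 males, which overlapped (log2 fold change -0.25, limma adjusted p = 0.443). With Slc17a6 as a covariate the value of Dot1l was -0.13. The log2 fold changes of the COMPASS genes were -0.18 for Setd1a, -0.03 for Kmt2a, 0.03 for Ash2l, 0.06 for Setd1b and 0.08 for Kmt2c. Those of the remaining genes were -0.07 for Setd2, which marks gene bodies, -0.06 for Setdb1, which silences retroelements, -0.03 for Ehmt2 and 0.03 for Setd7.

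Of the 10 measured demethylase genes, 8 were below 0 as deposited or with positive controls. With median centring, panel reference genes or Slc17a6 as a covariate 4 were below 0. Kdm3a, a demethylase of a repressive histone mark that is induced by hypoxia, had the smallest p of the 50 genes. It stood at 308, 254 and 251 in control females and 299.6, 290.0 and 226 in mtOGG1 females, which overlapped. Kdm3a values in males were 282, 319.9 and 293 in control males and 210.2, 205 and 220.2 in mtOGG1 males, and each mtOGG1 male lay below every control male. With the sexes averaged the standard error was 0.09 (log2 fold change -0.25, limma adjusted p = 0.315).

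Kdm5a, next among the demethylase genes, stood at 278, 279.6 and 288 in control females and 298, 258 and 272 in mtOGG1 females, which overlapped. Kdm5a values in males were 298, 293 and 277 in control males and 248, 253 and 249 in mtOGG1 males, which did not (log2 fold change -0.12, limma adjusted p = 0.514). Scaled on panel reference genes, the log2 fold change was -0.07 for Kdm5a and -0.10 for Kdm2b. Kdm2b, which binds CG-rich promoters and recruits Polycomb complexes, stood at 118, 100.1 and 107 in control females and 87.8, 84.2 and 96.2 in mtOGG1 females, without overlap. Kdm2b values in males were 94.6, 104 and 96.8 in control males and 90.5, 98.9 and 98.7 in mtOGG1 males, which overlapped (log2 fold change -0.16, limma adjusted p = 0.521). The other 7 genes had log2 fold changes between -0.09 for Kdm4b and 0.06 for Kdm1b, with -0.02 for Kdm1a, the demethylase LSD1 of the CoREST complex.

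Of the acetyltransferase genes Crebbp, which encodes the coactivator CBP, had the smallest p. It stood at 1109.9, 1059.8 and 1018 in control females and 1092, 1046 and 931 in mtOGG1 females. Crebbp values in males were 982, 1088 and 1158 in control males and 949, 1117 and 872 in mtOGG1 males, and the groups overlapped in each sex (log2 fold change -0.10, limma adjusted p = 0.641). Its paralog Ep300 had a log2 fold change of 0.03, and Kat2a, Kat2b, Hat1 and Tada2b lay between -0.03 and 0.05. Of the deacetylase genes Hdac2, a class I enzyme, stood at 828, 737 and 704 in control females and 878, 786 and 622 in mtOGG1 females, which overlapped. Hdac2 values in males were 789, 817 and 821 in control males and 645, 725 and 627 in mtOGG1 males, which did not (log2 fold change -0.14, limma adjusted p = 0.533). The log2 fold changes of Hdac2 and Crebbp were -0.03 and -0.02 with Slc17a6 as a covariate, -0.09 and -0.05 with panel reference genes, and -0.07 and -0.07 without mtOGG1 female 3. That of Crebbp was -0.15 without mtOGG1 male 2 and -0.06 without mtOGG1 male 3. For the other genes of this role the log2 fold changes were 0.11 for Hdac1, -0.07 for Hdac4, 0.02 for Hdac6, which deacetylates tubulin, -0.05 for Sirt1, and 0.02 for the corepressor gene Ncor1.

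The 3 measured genes of DNA methylation, the 4 remodellers and the 4 readers and Polycomb repressive complex 1 genes were all below 0 as deposited. With median centring or panel reference genes 3 of the 4 remodellers and 1 of the 4 readers were below 0. The 3 genes of DNA methylation stayed below 0 with these, with positive controls and with Slc17a6 as a covariate. Positive controls left all 4 remodellers and all 4 readers below 0, and the covariate 2 of each. Dnmt3a, a de novo methyltransferase, stood at 115, 92.2 and 113 in control females and 104, 106 and 91.4 in mtOGG1 females. Dnmt3a values in males were 92.6, 129 and 123 in control males and 93.3, 94.9 and 95.9 in mtOGG1 males, and the groups overlapped in each sex (log2 fold change -0.17, limma adjusted p = 0.533). Dnmt1, the maintenance enzyme, had a log2 fold change of -0.07 and Tet1, which oxidises methylcytosine, one of -0.09. Smarca4, the ATPase BRG1 of SWI/SNF, stood at 741, 683 and 697 in control females and 764, 689 and 629 in mtOGG1 females. Smarca4 values in males were 705, 769.9 and 743 in control males and 631, 719.7 and 591 in mtOGG1 males, with overlap in each sex (log2 fold change -0.11, limma adjusted p = 0.549). The value of Smarca4 was -0.06 with Slc17a6 as a covariate and -0.06 with panel reference genes. The other remodellers had log2 fold changes of -0.12 for Smarcd1, -0.10 for Smarca5 and -0.02 for Arid1a, another SWI/SNF subunit. Of the acetyl-lysine readers Brd3 stood at 252, 237 and 261 in control females and 277, 221 and 234 in mtOGG1 females. Brd3 values in males were 256, 290.4 and 253 in control males and 271, 247 and 231 in mtOGG1 males, with overlap in each sex (log2 fold change -0.07, limma adjusted p = 0.800). Over the other settings that of Brd3 lay between -0.12, without mtOGG1 female 1, and -0.02, with panel reference genes. The log2 fold change was -0.03 for Brd2, another such reader, and -0.0026 for Bmi1, a subunit of Polycomb repressive complex 1.

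**Figure D3:**
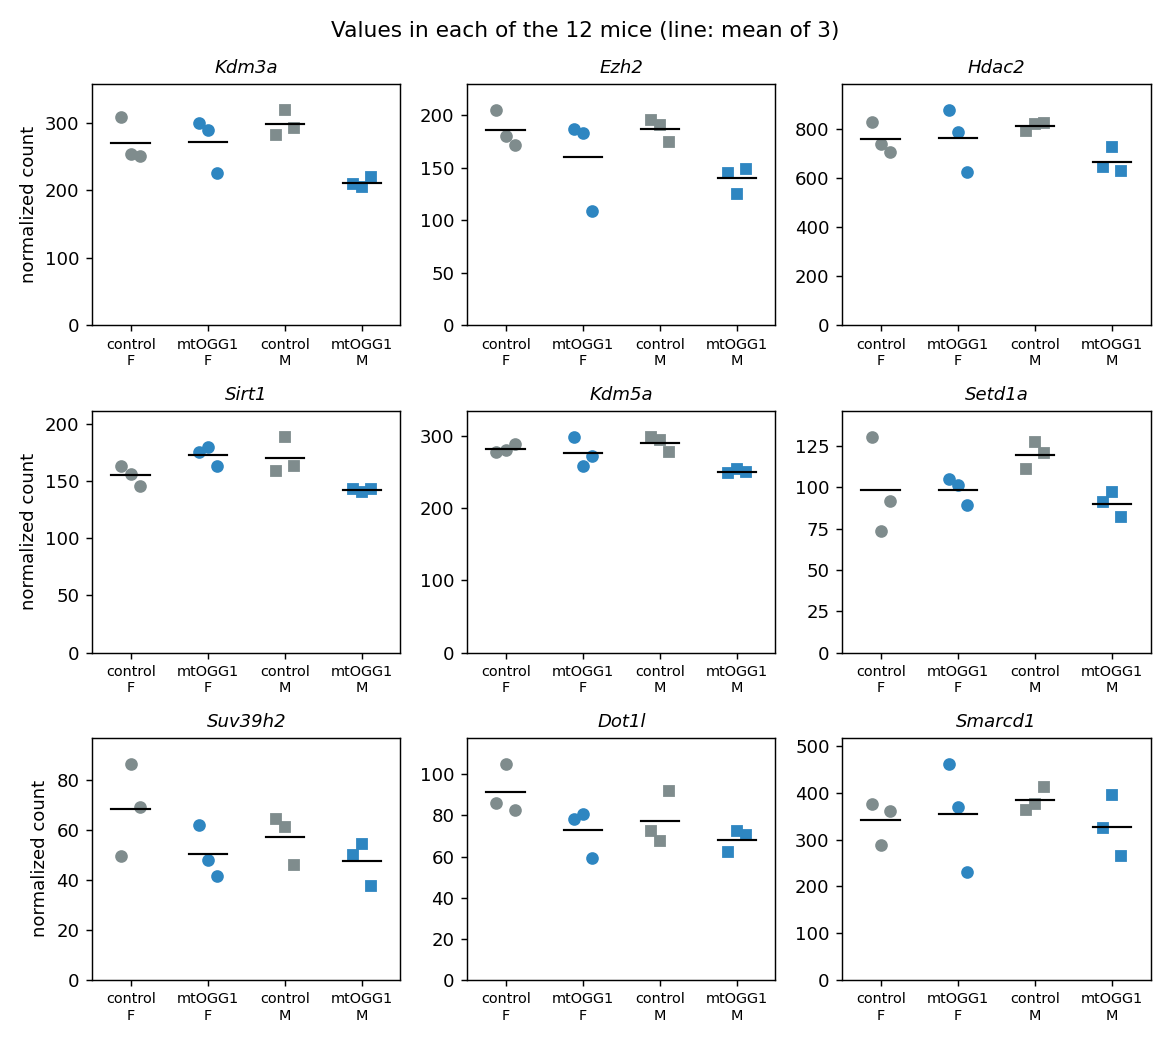
Normalized count (vertical axis, from 0) of 9 chromatin genes in each of the 12 mice, with females (F) and males (M) side by side, grey for control and blue for mtOGG1, and the mean of 3 as a line. In Kdm3a, Ezh2, Hdac2, Sirt1, Kdm5a and Setd1a each mtOGG1 male lies below every control male.

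Within females, limma called no chromatin gene (smallest adjusted p = 1) and none of the 608 genes (0.0%). At an unadjusted p under 0.05 there was 1 chromatin gene, Kdm2b, and 18 of all genes (2.96%). The log2 fold changes were above 0 in 30 of 50 genes, with a median of 0.0031 beside -0.01 over all genes. Those below 0 numbered 20 as deposited, 9 with median centring and 32 with positive controls. Over all 608 genes these counts were 315, 211 and 392. The interval stayed within a 1.5-fold change in 46 of the 50 genes and in 476 of the 608. Kdm2b, lower in each mtOGG1 female than in every control female, had the smallest p (log2 fold change -0.28, limma adjusted p = 1). Suv39h1, an X-linked gene, stood at 214, 169.5 and 234 in control females and 297, 252 and 222 in mtOGG1 females, which overlapped (log2 fold change 0.32, limma adjusted p = 1). In males Suv39h1 stood at 196, 277 and 219 in control males and 205, 245 and 213 in mtOGG1 males. The female log2 fold changes were -0.33 for Dot1l and -0.41 for Suv39h2 (limma, each with an adjusted p of 1). Single mice moved these values, to -0.19 for Dot1l without mtOGG1 female 3, and for Suv39h2 to -0.23 without control female 2 and -0.62 without control female 1. Suv39h1 had a value of 0.19 without control female 2 and 0.21 without mtOGG1 female 1. Every mtOGG1 female lay below every control female in 2 of 50 genes, Dot1l and Kdm2b, beside 3.45% of all genes, and above in 1, Ezh1, beside 1.81%.

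Within males, limma called no chromatin gene either, while 6 of 608 genes passed (0.987%). At an unadjusted p under 0.05 there were 6 chromatin genes, each lower in mtOGG1 males. Over all genes there were 81 (13.3%), of which 45 were lower and 36 higher. The median log2 fold change was -0.08, beside -0.02 over all genes, and 40 of 50 genes were below 0, beside 333 of 608. This count was 37 with median centring, 38 with positive controls and 26 with panel reference genes, beside 285, 290 and 234 of the 608. Panel reference genes gave a median of -0.01 beside 0.05 over all genes. The interval stayed within a 1.5-fold change in 43 of the 50 and in 411 of the 608. Kdm3a came nearest to the threshold (log2 fold change -0.49, limma adjusted p = 0.0664), with means of 298 ± 19.7 in control males and 212 ± 7.88 in mtOGG1 males (SD, n = 3 each) and a 95% interval of -0.76 to -0.22. Without mtOGG1 female 3, which leaves the male values and this log2 fold change as they are, its limma adjusted p was 0.0297.

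The next by p were Hdac2 (log2 fold change -0.28, limma adjusted p = 0.295) and Ezh2 (log2 fold change -0.42, limma adjusted p = 0.300), whose values in each mouse are given above. Setd1a stood at 111, 127 and 121 in control males and 91.4, 96.9 and 82.2 in mtOGG1 males (log2 fold change -0.40, limma adjusted p = 0.342). Sirt1 stood at 159, 189 and 163 in control males and 143, 140.4 and 143 in mtOGG1 males (log2 fold change -0.25, limma adjusted p = 0.358). For Kdm5a the difference was smaller (log2 fold change -0.21, limma adjusted p = 0.363). These 5 genes, Kdm3a and Eed were the 7 of 50 (14.0%) in which every mtOGG1 male lay below every control male, beside 12.0% of all genes. In no chromatin gene did every mtOGG1 male lie above, beside 5.76% of all genes.

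Markers of other cells and regions in the same males are given beside these values. Slc17a6, a glutamate transporter of neurons below the cortex, ranged from 222 to 726 in control males and from 403 to 1597 in mtOGG1 males. Ttr of the choroid plexus ranged from 35.6 to 1510.2 in control males and from 1173 to 1525 in mtOGG1 males. The summed level of the 9 oligodendrocyte markers in the table, of 12 listed, ranged from 11853 to 16139 in control males and from 16082 to 22684 in mtOGG1 males. That of the 5 endothelial and pericyte markers, of 9 listed, ranged from 529 to 606 in control males and from 440.4 to 491 in mtOGG1 males. The endothelial and pericyte sum did not overlap between the male genotypes, while Slc17a6, Ttr and the oligodendrocyte sum did. The sums of the neuronal, astrocyte and microglia markers overlapped as well. In control males they ranged from 20681 to 21864, 4435 to 5253 and 3813 to 4626. In mtOGG1 males they ranged from 18903 to 25669, 4755 to 5055 and 4335 to 4389. Ttr reached the floor among control females and in no male, and the other markers were above the floor in every mouse. With Slc17a6 as a covariate the male log2 fold changes were -0.42 for Kdm3a (limma adjusted p = 0.278), -0.31 for Ezh2, -0.29 for Setd1a and -0.15 for Hdac2. The part of the other markers in these values was not tested.

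**Figure D4:**
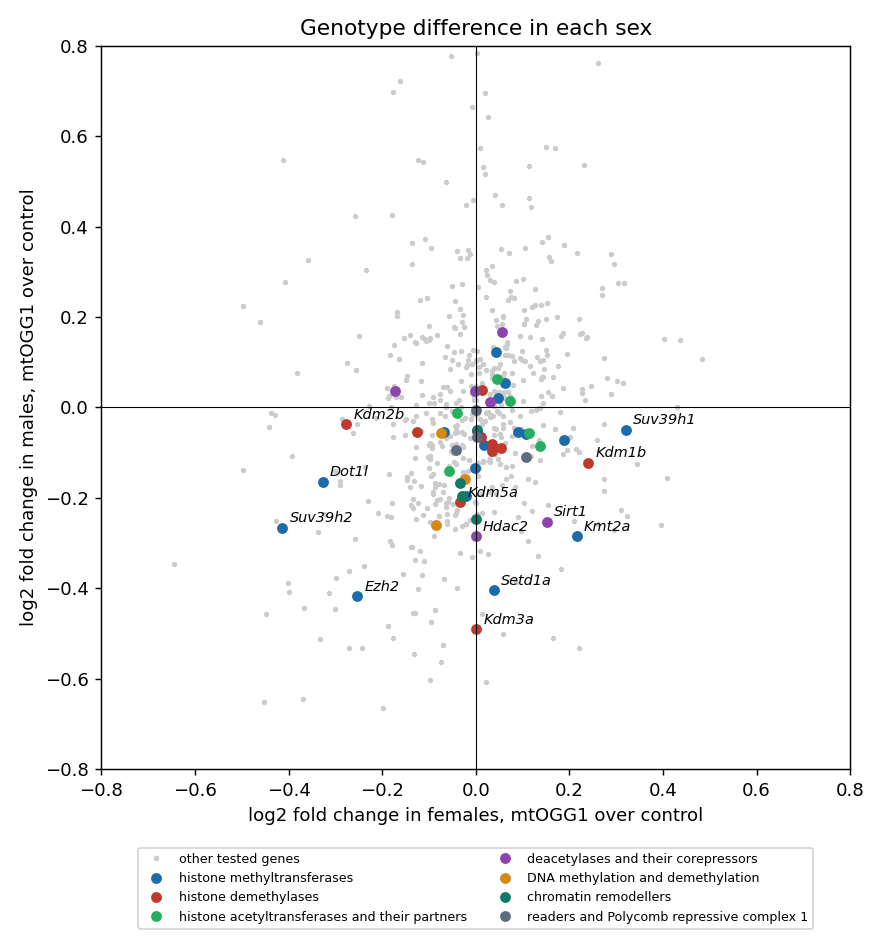
Log2 fold change of mtOGG1 over control in males (vertical axis) against that in females (horizontal axis) for 50 chromatin genes, coloured by role, with the other 558 tested genes in grey, of which 15 lie outside the axes. In males 40 of the 50 chromatin genes lie below 0 (26 with panel reference genes), and in females 20 do (9 with median centring).

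An interaction term tested females against males in their response to genotype. Limma called no chromatin gene (smallest adjusted p = 0.909) and none of the 608 genes (0.0%). At an unadjusted p under 0.05 there were 3 chromatin genes, Kdm3a, Sirt1 and Kmt2a, and 29 of all genes (4.77%). The female minus male difference in log2 fold change was 0.49 for Kdm3a, with a 95% interval of 0.10 to 0.88. It was 0.40 for Sirt1 (limma adjusted p = 0.932), 0.50 for Kmt2a (limma adjusted p = 0.932) and 0.44 for Setd1a (limma adjusted p = 0.959). Sirt1 stood at 164, 157 and 146 in control females and 176, 179.7 and 163 in mtOGG1 females, which overlapped. Kmt2a, the COMPASS methyltransferase also known as MLL1, stood at 308, 325 and 238 in control females and 329, 350.3 and 324 in mtOGG1 females. Kmt2a values in males were 292, 392 and 344 in control males and 245, 326 and 271 in mtOGG1 males, and the genotypes overlapped in each sex. Setd1a stood at 131, 73.4 and 91.6 in control females and 105, 101 and 89.6 in mtOGG1 females, which overlapped. The median of this difference was 0.11 over the 50 genes and 0.03 over all genes, and it was above 0 in 37 of 50 and 342 of 608. With median centring it was above 0 in 40 of 50 and 365 of 608, and with panel reference genes in 33 and 287. Slc17a6 as a covariate left it above 0 in 36 of 50 and 341 of 607. With positive controls it was above 0 in 28 of 50 and 237 of 608, with a median of 0.03 beside -0.05 over all genes. For Setd1a it was 0.25 without control female 2 and 0.67 without control female 1.

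Females and males were also compared with the genotypes averaged. None of the 50 genes passed (limma, smallest adjusted p = 0.773) or had an unadjusted p under 0.05. Over all genes 4 of 608 passed (0.658%) and 39 had such a p (6.41%). The choice left the sex-linked genes Kdm5c, Kdm5d and Kdm6a out of the 50, but the table of all genes holds them. These counts therefore do not tell whether chromatin genes differ less by sex than others. All 50 intervals stayed within a 1.5-fold change, beside 560 of the 608 over all genes. Setd1b stood at 223, 201 and 259 in control females and 282, 262 and 234 in mtOGG1 females. Setd1b values in males were 248, 299.6 and 304 in control males and 291, 272 and 246 in mtOGG1 males, and the female over male log2 fold change was -0.19. Bmi1 stood at 348, 364 and 369.9 in control females and 412, 364 and 313 in mtOGG1 females. Bmi1 values in males were 307, 340.2 and 321 in control males and 316, 357 and 293 in mtOGG1 males, and this log2 fold change was 0.16. Tet1 stood at 151, 119 and 123 in control females and 129.9, 127 and 127 in mtOGG1 females. Tet1 values in males were 105, 138 and 124 in control males and 108, 107 and 111 in mtOGG1 males, a female over male value of 0.17, and the sexes overlapped in all 3 genes. Dot1l had a female over male value of 0.16, and the X-linked genes Suv39h1 and Hdac6 had values of 0.02 and -0.01. Scaling on the positive controls moved the median of all genes in this comparison from 0.04 to -0.15 and turned the sign for Bmi1, Tet1 and Dot1l, while the value of Setd1b became -0.38.

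Ratios of related genes within a mouse do not depend on how mice are scaled to each other. For 15 pairs of related genes, chosen with the values known and described without a test, every mtOGG1 mouse lay beyond every control mouse in 3 pairs in females and in 4 in males. Over all pairs of tested genes this was so for 8.12% in females and 26.6% in males. Suv39h1 over Suv39h2 had log2 ratios of 2.12, 0.97 and 1.76 in control females and 2.26, 2.40 and 2.42 in mtOGG1 females, without overlap, whereas the males overlapped. The other pairs apart in females were Kdm2a over Kdm2b, with a mean difference in log2 ratio of 0.31, and Crebbp over Ep300, with -0.17. Hdac1 over Hdac2 had log2 ratios of -2.90, -2.70 and -2.93 in control males and -2.45, -2.47 and -2.25 in mtOGG1 males, without overlap, whereas the females overlapped. Kmt2a over Kmt2c had log2 ratios of 0.61, 0.71 and 0.56 in control males and 0.03, 0.50 and 0.13 in mtOGG1 males. The other pairs apart in males were Setd1a over Setd1b, with a mean difference of -0.34, and Kdm5a over Kdm5b, with -0.14. Ezh2 over Ezh1 overlapped in each sex, with mean differences of -0.35 in females and -0.37 in males.

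**Figure D5:**
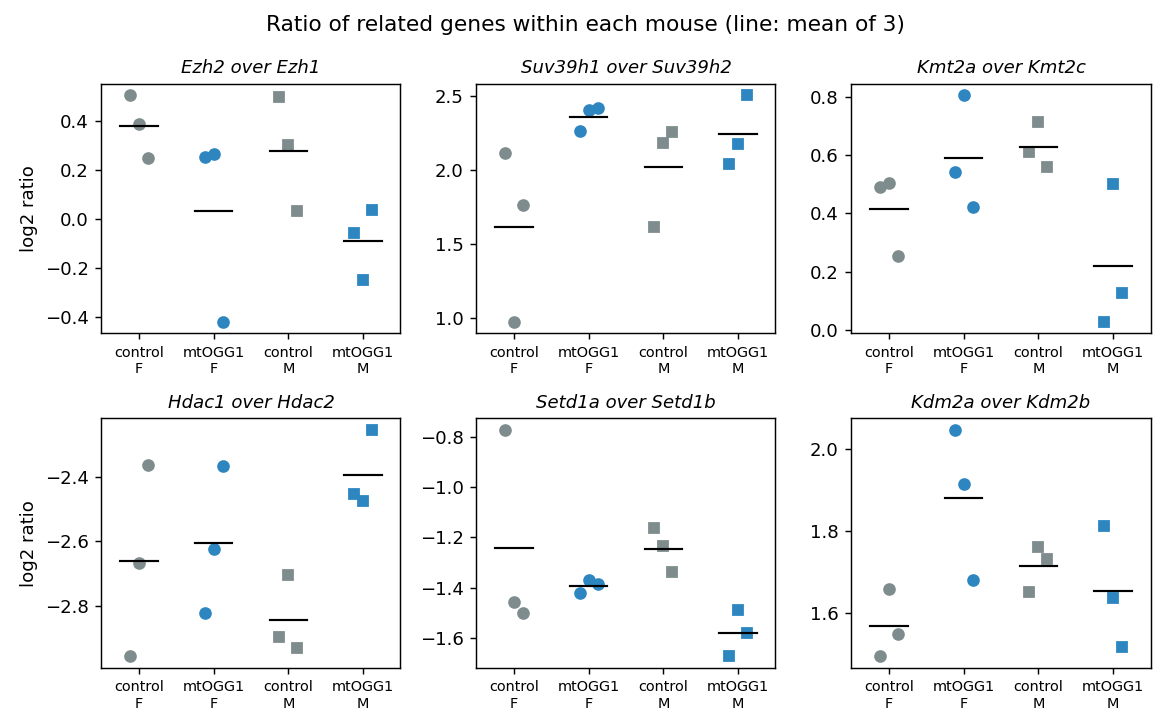
Log2 ratio of the normalized counts of 2 related genes within each mouse (vertical axis, not starting at 0) for 6 pairs, with females (F) and males (M) side by side, grey for control and blue for mtOGG1, and the mean of 3 as a line. Suv39h1 over Suv39h2 and Kdm2a over Kdm2b lie apart in females, and Hdac1 over Hdac2, Kmt2a over Kmt2c and Setd1a over Setd1b in males.

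The other chromatin genes that were listed, which did not include Kdm5c, Kdm5d and Kdm6a, gave no call in any of the 5 comparisons. Of a list of such genes 13 were in the table and tested, among them Mbd2 and Mbd3, of the family that reads methylated DNA, Wdr5, a COMPASS subunit, Jarid2, a partner of Polycomb repressive complex 2, and the histone chaperone gene Hira. With the sexes averaged 0 of 13 passed limma's test and 2 had an unadjusted p under 0.05. These were Gadd45g (log2 fold change -0.28, limma adjusted p = 0.401) and Gadd45a (log2 fold change -0.27, limma adjusted p = 0.401), stress-induced genes linked to DNA repair and demethylation. Gadd45a stood at 136, 195 and 146 in control females and 154, 107 and 137 in mtOGG1 females. Gadd45a values in males were 119, 111 and 112 in control males and 87.7, 109 and 84.1 in mtOGG1 males, and its female over male log2 fold change was 0.48 (limma adjusted p = 0.118).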

How the data were processed

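The deposited values are normalized signal, made by the authors with nCounter Advanced Analysis software, as the design text of the series states. Each gene value above the floor of 20 equals a whole count times 1 factor per sample, within 0.01 for 100% of values, and the basis of these factors is not stated. Nothing says whether mice of a group shared a litter, and p-values reflect the spread between these mice.

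Values were taken as log2(value + 1), which understates the change of low genes. The fit used limma 3.58.1 in R 4.3.3 over all 608 genes above the floor in at least 3 samples, with 4 group means, a variance trend and Benjamini-Hochberg adjustment at 0.05. The code was tested on simulated counts. Samples of different groups that share a number were not treated as pairs, since the labels do not say that they are. Of 18 such pairs 8 had deviations correlated above 0.1, and the correlations ranged from -0.34 to 0.56. Pairs of unlike number ranged from -0.58 to 0.63, so that these values cannot decide whether the numbers pair the mice. The genes described, the lists and the tests were chosen with earlier results of these data known. Values in every mouse are given for the 8 genes of smallest p over both sexes, the 4 of smallest p in the other comparisons, the smallest p of each role, and the genes of extreme level or spread, except Smarca5 and Kdm1b, given as ranges. Other settings of pseudocount, filter, scaling, variance model, block, covariate and samples were run. Figures used matplotlib 3.10.9 in Python 3.11.15. Values of 2 of the 50 genes are not reported here by name and are included in the counts and medians.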

Additional observations from a re-analysis of the deposited data

How the results depend on the processing

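No chromatin gene was called in 12 other settings and 12 fits without 1 mouse, over 5 comparisons, except Kdm3a in males without mtOGG1 female replicate 3, so that the count of chromatin genes called lay between 0 and 1 in males and was 0 elsewhere. With a replicate block on the sample numbers, which are not known to pair the mice, no chromatin gene was called. The calls over all genes were then 7 over both sexes, 8 in males and 4 by sex. Over all genes, the 8 calls over both sexes became 5 with a pseudocount of 5 or 20 or with genes above the floor in all samples, 3 with a mean of at least 50 and 0 without a filter. They lay between 3, without mtOGG1 female 3 or control male 2, and 12, without mtOGG1 male 2. The 6 calls in males became 0 without a filter, 10 with median centring or with 11 panel reference genes, 11 with positive controls or robust variances and 12 without a variance trend. They numbered 4 at the fewest and 19 at the most when 1 mouse was left out, the latter without mtOGG1 female 3. The 4 calls by sex became 2 with genes above the floor in all samples, without a filter or with reference genes, and lay between 2 and 5 without 1 mouse. Calls lay between 0 and 2 in females and between 0 and 1 for the interaction, again without 1 mouse. Leaving out 1 mouse gave a median of the chromatin genes between -0.07 and 0.01 over both sexes, -0.07 and 0.08 in females, -0.13 and -0.03 in males, 0.03 and 0.17 for the interaction and -0.0039 and 0.05 by sex. By sex, positive controls gave a median of -0.17, -0.032 for Bmi1, -0.028 for Tet1 and -0.030 for Dot1l. Median centring gave a median spread of 0.117. Over both sexes the median of the chromatin genes was -0.03 as deposited or with positive controls. It was 0.02 with median centring or panel reference genes and 0.0039 with Slc17a6 as a covariate. The medians over all genes were -0.01 as deposited or with positive controls. They were 0.04 with median centring or panel reference genes and -0.03 with the covariate. The cause of these moves was not tested. Levels under 20 are hidden by the floor.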
